A study of Mus musculus with 6 samples.

Results

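The cells described here were T cells with reads of the T cell receptor delta constant gene Trdc or of the Ly49 receptor gene Klra6, chosen from 2 single-cell RNA-seq libraries by what they transcribed. A cell was a member when it held at least 1 unique molecular identifier (UMI, the tag that counts single RNA molecules) of Cd3e or Cd3d, at least 1 of Trdc or Klra6, none of Cd8b1, Cd4, Foxp3, Csf1r, Il17a or Cd163l1, and fewer than 2 of the cycling genes Mki67 and Top2a summed. The rule selected 207 cells, of 1608 cells with Cd3e or Cd3d and 6364 cells in all. They are called Trdc/Klra6 cells below. The values of these 12 genes chose the members and are given as a description, with no test.

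The study asked how the status of Bmal1, the circadian transcription factor encoded by Arntl, acts in mouse melanoma. Its labels name YUMM2.1, a mouse melanoma line, as the source, and the lines of the study carried a lentiviral empty vector (Empty vector) or lentiviral wild-type Bmal1 (Bmal1 WT) and were sorted for GFP. Each group was 1 droplet channel that pooled 3 replicates marked with hashtag antibodies, h1, h7 and h8 for Empty vector and h3, h5 and h9 for Bmal1 WT. Culture or tumour as the source of the cells, whether the lines kept their own Bmal1, and the animals, ages or times behind the replicates were not in the labels. T cells are not part of a melanoma line, and the members carried few melanoma transcripts: the 6 melanoma markers summed to 33.1 CPM (UMIs per 1000000 UMIs of the summed cells) in them. In the study the vector was given to the melanoma line, so a group names the cells that the T cells accompanied, not a treatment of the T cells. Group and channel cannot be told apart.

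Gamma-delta T cells carry a receptor built from Trdc and the Tcrg genes in place of the alpha-beta receptor built from Trac and the Trb genes, and they respond without classical peptide presentation. Ly49 receptors, encoded by the Klra genes in a cluster on mouse chromosome 6, bind MHC class I and are best known from natural killer (NK) cells, where most inhibit and some activate the cell. A minority of alpha-beta T cells also carries Ly49 receptors, among them CD8 T cells with regulatory function that depend on the transcription factor Helios, encoded by Ikzf2. Lef1 and Tcf7 encode transcription factors of naive, memory and developing lymphocytes.

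Trdc (ENSMUSG00000104876, chr14:54142851-54148868, + strand, GRCm38) lies in the same locus as Trac (chr14:54220521-54224206, + strand). Klra6 (ENSMUSG00000061769, chr6:130013033-130026954, − strand) lies in a cluster of Ly49 genes with Klra7 (chr6:130218605-130233322) and Klra1 (chr6:130363917-130386874), both on the − strand. Ly49 genes are near copies of each other, and the assay reads the 3′ end of transcripts. In the last 500 bases of the Klra6 transcript 0 of 411 windows of 90 bases occurred in another Klra transcript. The same held for Klra1, Klra4, Klra5, Klra7 and Klra8, whereas 5.15% of the windows of Klra3 and 4.74% of those of Klra9 did. The gamma constant genes Tcrg-C1 and Tcrg-C2 are also close relatives, so the split of reads between them is uncertain.

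Members with Klra6 also carried Klra7 transcripts, and the sequences of both genes are printed to show what the pair shares. Both are RefSeq sequences of GRCm38.p6, from 250 bases before to 50 bases after the start, read 5′ to 3′ on the − strand. Capitals mark the letters CTTTGA, which TCF/LEF factors are known to favour, searched on both strands (TCAAAG on the other). The first is at chr6:130026905-130027204 and the second, from the upstream of 2 listed starts, at chr6:130233273-130233572.
Klra6: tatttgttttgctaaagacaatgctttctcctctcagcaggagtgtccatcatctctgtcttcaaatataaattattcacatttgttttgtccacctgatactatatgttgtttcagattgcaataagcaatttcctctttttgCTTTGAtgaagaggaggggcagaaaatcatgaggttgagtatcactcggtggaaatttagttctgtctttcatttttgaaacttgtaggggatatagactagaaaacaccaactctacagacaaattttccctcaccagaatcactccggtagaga
Klra7: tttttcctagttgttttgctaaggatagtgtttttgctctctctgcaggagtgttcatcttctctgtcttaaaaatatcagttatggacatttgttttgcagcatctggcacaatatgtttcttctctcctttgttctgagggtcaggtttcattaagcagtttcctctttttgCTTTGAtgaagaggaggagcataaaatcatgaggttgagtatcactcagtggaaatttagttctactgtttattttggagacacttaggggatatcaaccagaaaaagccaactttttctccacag
The letters stood at −106 from the start in Klra6 and at −76 in Klra7, inside a run of 30 bases that the pair shares. The 2 sequences were identical over 69.2% of aligned positions. CTTTGA was found in 5257 of 32851 promoters of this length (16.003%), and not in the promoter of Klra1. Klra6 shared a longer run with Klra5 (53 bases), Klra3 and Klra9 (51 bases each), whose promoters held no CTTTGA, and the downstream start of Klra7 shared 8 bases with Klra6 and held the letters at −246. The E-box CACGTG, the letters that Bmal1 with its partner Clock is known to favour, was in 7.15% of all promoters and in none of the listed Klra promoters. A match describes letters and shows no binding.

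The Empty vector library held 34232927 gene UMIs in 4147 barcodes and Bmal1 WT held 39561569 in 2785. After the cell filter, 3978 and 2386 cells were left, with medians of 5094 and 7570.5 UMIs, and 3222 and 1621 of them carried exactly 1 hashtag. The libraries shared 5 barcodes, none of them a member. Members had a median of 5381 UMIs, NK cells 5428 and T cells that passed the exclusions but held neither Trdc nor Klra6 3128. There were 167 Empty vector members, of which 52, 43 and 53 were assigned to h1, h7 and h8, and 40 Bmal1 WT members, of which 19, 11 and 10 were assigned to h3, h5 and h9. Their summed UMIs ran from 67331 to 341380 per hashtag, so the Bmal1 WT values rest on less. More than 1 hashtag was called on 8.21% of members. Nothing says that hashtags mark separate animals or cultures, so p-values measure the spread between these samples, which may be technical.

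Of 302 T cells with Trdc or Klra6, 95 were left out. Cycling alone excluded 27, Il17a or Cd163l1 25, Cd8b1 17, Cd4 7, Csf1r 5 and Foxp3 0, and 14 met several conditions. All 25 cells excluded for Il17a or Cd163l1 held Trdc and none Klra6. At the edge of the rule, 61 members held a sum of 1 UMI of Trdc and Klra6 (median 4594 UMIs per cell), 29 held 2 and 117 held 3 or more, up to 41. Just outside it, 303 T cells held 0, with a median of 3128 UMIs per cell.

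Trdc stood at 586, 579 and 633 CPM in members of h1, h7 and h8 and at 413, 654 and 979 CPM in h3, h5 and h9. Klra6 stood at 251, 313 and 164 CPM and at 413, 163 and 163 CPM in the same order. NK cells, taken as cells with Ncr1 and with no Cd3e, Cd3d or Csf1r UMI that were not cycling, averaged 70.9 ± 6.73 CPM of Trdc (SD, n = 6 hashtags) and 19.0 ± 8.03 CPM of Klra6. A Trdc UMI was found in 25.5% of 929 NK cells, in 1.88% of 426 T cells with Cd8b1 (no Cd4, Foxp3 or Csf1r, not cycling) and in 0.794% of 1008 cells with Csf1r and no Cd3e or Cd3d UMI, a macrophage-type population. For Klra6 these shares were 5.81%, 2.35% and 0.298%. The share in Csf1r cells can be read as background, and NK cells stood above it for both genes. With each cell thinned to 2000 UMIs the Trdc shares were 10.9%, 1.01% and 0.311%.

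The members were of 3 kinds. Klra6 without Trdc was found in 87 cells (Klra6 cells), Trdc without Klra6 in 95 (Trdc cells) and both genes in 25. Trac was detected in 73 of 87 Klra6 cells (83.9%, 95% Clopper-Pearson interval 74.5 to 90.9, counting error only), against 91.5% of T cells with Cd8b1 (88.5 to 94.0). It was detected in 17 of 95 Trdc cells (17.9%, 10.8 to 27.1) and in 6 of 25 cells with both. A Tcrg constant gene was found in 43 of 87 Klra6 cells, 74 of 95 Trdc cells and 21 of 25 cells with both. It was also found in 134 of 426 T cells with Cd8b1 (31.5%), so it does not mark gamma-delta cells alone. Of the 207 members, 26 had neither Trac nor a Tcrg constant gene. Trac with Cd8a was found in 23 of 87 Klra6 cells and 1 of 95 Trdc cells. Trac was thus found in most Klra6 cells, and a gamma constant gene in most Trdc cells. The beta constant genes were each detected in most cells of both kinds. Trbc2 was detected in 74 of 87 Klra6 cells and 68 of 95 Trdc cells (71.6%, 61.4 to 80.4), and Trbc1 in 46 of 87 and 52 of 95 (54.7%, 44.2 to 65.0), while NK cells held Trbc1 in 83.2% and Trbc2 in 32.8%.

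**Figure D1:**
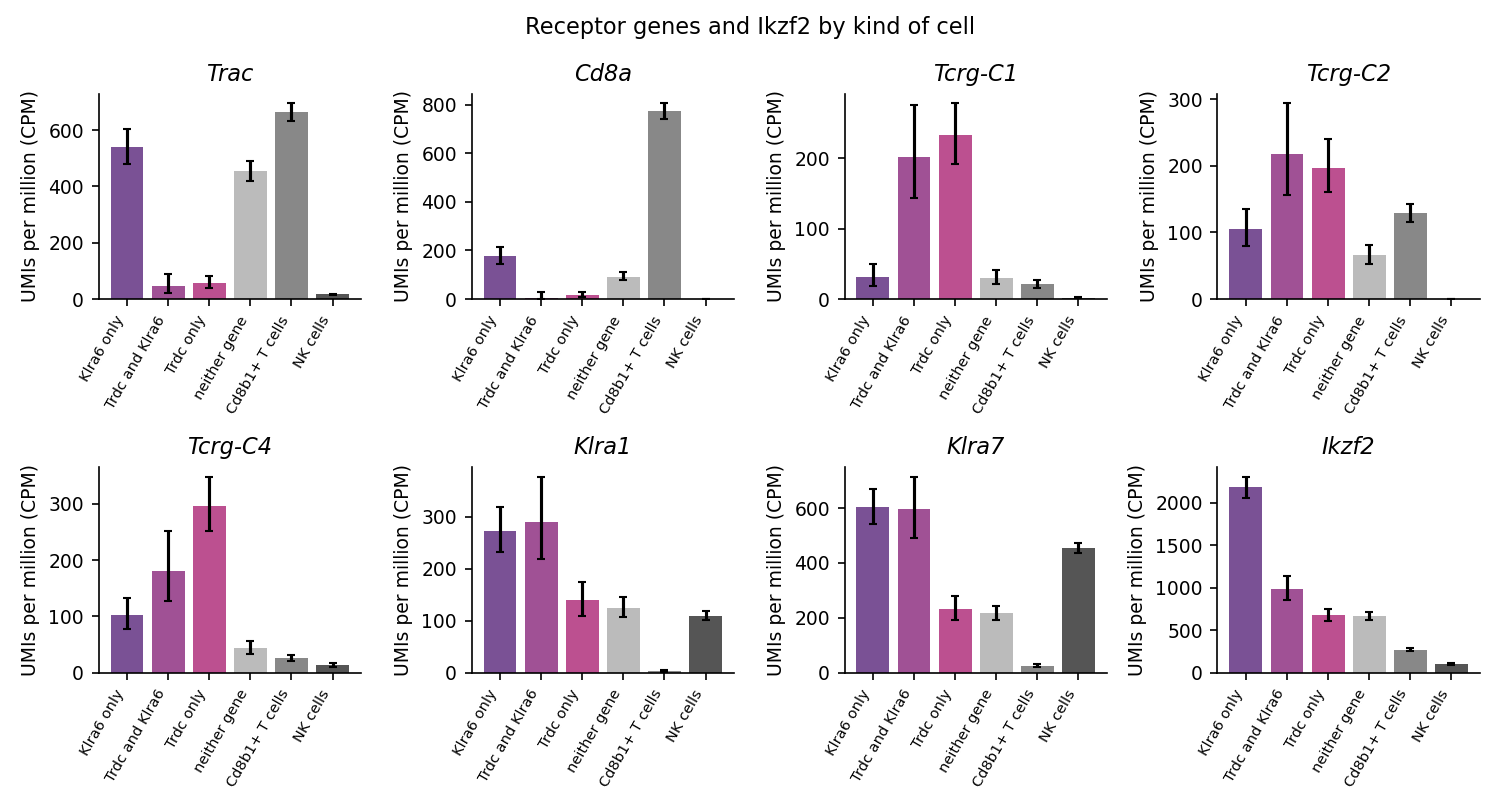
Level of 8 genes in CPM (UMIs per 1000000), summed over all cells of a kind, in Klra6 cells (87), cells with both genes (25), Trdc cells (95), T cells that passed the exclusions with neither gene (303), T cells with Cd8b1 (426) and NK cells (929), with 95% Poisson intervals that cover counting error only. Trac is at 540 CPM in Klra6 cells and 56.6 CPM in Trdc cells, Tcrg-C4 at 297 CPM in Trdc cells, and Klra7 is at 604 CPM in Klra6 cells.

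Summed over cells, Trac was at 540 CPM in Klra6 cells (interval 481 to 604), 56.6 CPM in Trdc cells (37.9 to 81.3) and 46.6 CPM in cells with both (21.3 to 88.5), against 664 CPM in T cells with Cd8b1 and 16.1 CPM in NK cells. Cd8a, one chain of the CD8 coreceptor, was at 175, 15.6 and 5.18 CPM in the same order. On these genes the interval of the cells with both genes overlapped that of the Trdc cells and not that of the Klra6 cells. Of the gamma and delta variable genes listed, Trgv2 had the most UMIs in members (83, 65.3 CPM, 52.0 to 81.0). Tcrg-V1 had 18 (14.2 CPM, 8.40 to 22.4), Tcrg-V4 13, Trdv5 8, Trdv2-2 6, Trdv4 3, Trdv1 2 and Tcrg-V5, Tcrg-V6 and Tcrg-V7 0, which allows up to 2.36 CPM each. T cells with Il17a or Cd163l1 had 122 CPM of Trdv4 and 33.6 CPM of Tcrg-V6. The assay reads the 3′ end of transcripts, so these counts do not measure which variable genes the receptors used.

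The word innate-like was checked on Zbtb16, which encodes PLZF, a factor that defines invariant NKT and several other innate-like T cells. Zbtb16 had 11 UMIs in members (8.66 CPM, 4.32 to 15.5), 7.70 CPM in NK cells and 67.3 CPM in T cells with Il17a or Cd163l1. By hashtag it was at 7.61, 7.29 and 0 CPM in h1, h7 and h8 and at 0, 0 and 103.8 CPM in h3, h5 and h9, where 7 of the UMIs lay. Sox13, a factor of gamma-delta cells that make IL-17, had 2 UMIs in members. The rule left out cells with Il17a or Cd163l1, so lower Zbtb16 in members than in those cells may follow from that choice. Zbtb16 was low outside h9 but also low in NK cells, so these values cannot decide whether members are innate-like. The cells are therefore called by their rule here.

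Klra6 cells and Trdc cells were compared within hashtags with edgeR's quasi-likelihood test on summed UMIs (Benjamini-Hochberg adjusted p under 0.05). Klra6 cells had higher Trac, Cd8a, Ikzf2 and Klra7, and Trdc cells higher Tcrg-C1, Tcrg-C4, Klrc1, Klf2 and S1pr1. The kinds were split on Trdc and Klra6 UMIs, and Trdc lies in the same locus as Trac. Differences in Trac, the Tcrg genes and other Ly49 genes may therefore follow from the split. Of 3254 genes tested, 9 were higher in Klra6 cells (0.277%) and 8 lower (0.246%). Trac averaged 522 ± 153 CPM in Klra6 and 56.9 ± 45.9 CPM in Trdc cells (SD, n = 6 hashtags), and it was higher in 6 of 6 hashtags (log2 fold change 3.25, SE 0.33, edgeR adjusted p = 9.2e-12). Ikzf2, which encodes Helios, stood at 2227, 2506 and 2310 CPM in Klra6 cells of h1, h7 and h8 and at 1728, 3666 and 1349 CPM in h3, h5 and h9. In Trdc cells it stood at 708, 693 and 695 CPM and at 1080, 854 and 578 CPM. The kinds did not overlap in Ikzf2 (log2 fold change 1.59, SE 0.16, adjusted p = 5.5e-12). WT h9 held a single Klra6 cell, so the values of that hashtag are those of 1 cell.

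Cd8a followed Trac (log2 fold change 3.52, SE 0.47, adjusted p = 1.6e-07), as did Trat1, a T cell receptor adaptor (2.47), and Trbc2 (0.86). Of the 4 Ly49 genes tested, Klra7 (1.57, SE 0.31, adjusted p = 0.0014) and Klra9 (3.54) were higher in Klra6 cells and Klra4, which encodes an activating receptor, was lower (−3.00, SE 0.58), with UMIs in 2 of 6 hashtags. Tcrg-C1 averaged 54.4 ± 69.7 CPM in Klra6 and 255 ± 67.7 CPM in Trdc cells (−2.66, SE 0.38, adjusted p = 8.7e-07). Tcrg-C4 averaged 92.4 ± 50.3 and 329 ± 52.4 CPM (−1.55, SE 0.29, adjusted p = 0.00062). Trdc cells also had more S1pr1, the receptor by which lymphocytes leave tissue (71.3 ± 53.3 CPM in Klra6 and 245 ± 147 CPM in Trdc cells, −1.80, SE 0.33, adjusted p = 0.0003), more of its regulator Klf2 (−1.10) and more Klrc1, which encodes the inhibitory receptor NKG2A (−1.12). Trac, Cd8a, Ikzf2 and Tcrg-C1 kept their calls under all 15 alternatives, and Trbc2, Klra7, Klrc1 and Klf2 lost theirs under 10, 6, 6 and 3. The 8 cytotoxic effectors, 4 checkpoint receptors and 10 residence genes tested gave 0 calls.

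T cells that passed every exclusion with no Trdc or Klra6 UMI (303 cells) are the nearest neighbours of the members, since Cd8b1, Cd4, Foxp3 and the cycling genes were at or near 0 on both sides. Against them, members had more of the 4 gamma-delta receptor genes tested, of 2 of 7 Ly49 genes and of 4 of 16 other NK receptors and adaptors, more Ikzf2, Ahr and Xcl1, and less Icos, Ctla4, Maf and Tnfrsf4. Of 6023 genes tested, 41 were higher (0.681%) and 133 lower (2.21%), with a median log2 fold change of −0.03 over all of them. DESeq2 called 17 higher and 31 lower. Leaving out Empty vector h1 left 70 calls of 174, and leaving out h8 left 91.

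All 4 gamma-delta receptor genes tested were higher (median log2 fold change 1.78). Members were chosen for Trdc or Klra6 and the neighbours for neither, so higher gamma-delta receptor and Ly49 genes may follow from the choice. By kind, Tcrg-C1 averaged 255 ± 67.7 CPM in Trdc cells and 54.4 ± 69.7 CPM in Klra6 cells, and 38.5 ± 31.5 CPM in the neighbours. In the same order Tcrg-C4 averaged 329 ± 52.4, 92.4 ± 50.3 and 44.5 ± 17.4 CPM. Tcrg-C4 stood at 236, 222 and 199 CPM in members of h1, h7 and h8 and at 135, 163 and 237 CPM in h3, h5 and h9. In cells with neither gene it stood at 45.0, 37.2 and 40.8 CPM and at 77.1, 25.2 and 41.6 CPM, so every member value lay above them (2.13, SE 0.25, adjusted p = 5.0e-06). Tcrg-C1 rose by 2.10 (SE 0.27), Trgv2 by 1.45 (SE 0.35) and Tcrg-C2 by 1.09 (SE 0.22). Trac averaged 277 ± 125 CPM in members and 460 ± 116 CPM in the neighbours (−0.72, SE 0.22, adjusted p = 0.087). Of 10 genes of the alpha-beta receptor and CD3 list, 0 were higher and 3 lower, namely the costimulator Cd28 (−0.88) and the receptor modulators Cd5 (−1.58), whose call was lost under 8 of 14 alternatives, and Cd6 (−1.66).

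Klra7, which encodes Ly49G, stood at 403, 521 and 451 CPM in members of h1, h7 and h8 and at 578, 475 and 534 CPM in h3, h5 and h9. The neighbours ran from 127 to 264 CPM, without overlap (1.28, SE 0.16, adjusted p = 1.1e-05). Klra1, which encodes Ly49A, was higher as well (251 ± 78.3 against 147 ± 84.2 CPM, 0.85, SE 0.22, adjusted p = 0.028), but this call was lost under 9 of 15 alternatives. Of 7 Ly49 genes tested 2 were higher and 0 lower. Members were chosen for Klra6 as well, so higher Ly49 genes may follow from that choice. Another of Klra1, Klra3, Klra5, Klra7 and Klra9 was detected in 72 of 87 Klra6 cells (82.8%, 73.2 to 90.02), 41 of 95 Trdc cells (43.2%, 33.0 to 53.7), 22 of 25 cells with both, 114 of 303 neighbours (37.6%, 32.1 to 43.3) and 31 of 426 T cells with Cd8b1 (7.28%, 4.998 to 10.2).

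Of 16 other NK receptors and adaptors tested, 4 were higher and 0 lower: the signalling adaptor Fcer1g (666 ± 131 against 392 ± 96.5 CPM, 0.79, SE 0.15), the CD94 gene Klrd1 (0.70), its activating partner Klrc2 (0.88) and Cd160 (0.93), which lost its call under 7 of 15 alternatives. Cd244, a receptor of NK and T cells, was also higher (1.16, SE 0.22, adjusted p = 0.0022). Nkg7 (0.51) and Ctsw were the 2 of 9 cytotoxic effectors called, both higher, and lost their calls under 4 and 8 of 15 alternatives. Gzma averaged 429 ± 208 CPM against 594 ± 439 CPM (−0.10, SE 0.34, adjusted p = 0.96) and Prf1 86.3 ± 37.2 against 132 ± 99.6 CPM (−0.33, SE 0.33, adjusted p = 0.81), so a difference was not detectable at this depth. Xcl1, the chemokine that draws cross-presenting dendritic cells, averaged 401 ± 141 against 149 ± 79.0 CPM (1.47, SE 0.19, adjusted p = 1.5e-05) and was higher in 6 of 6 hashtags, although the ranges met: 263 to 578 CPM in members and 101 to 305 CPM in the neighbours.

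Ikzf2 averaged 1565 ± 509 CPM in members and 743 ± 124 CPM in the neighbours, whose highest value (894 CPM) lay under the lowest of the members (1068 CPM; 1.05, SE 0.13, adjusted p = 1.5e-05). By kind, Ikzf2 averaged 2298 ± 793 CPM in Klra6 cells and 768 ± 176 CPM in Trdc cells. The mean of the Trdc cells thus lay near that of the neighbours, and each kind against the neighbours was not tested. Ahr, the aryl hydrocarbon receptor, averaged 215 ± 47.2 CPM in members and 86.5 ± 30.3 CPM in the neighbours (1.28, SE 0.23, adjusted p = 0.0013). Eomes, a factor of NK and memory CD8 T cells, was higher (0.85, adjusted p = 0.037), a call lost under 11 of 15 alternatives. Maf (−3.23, SE 0.34), Prdm1 (−2.10, SE 0.43) and Rora (−1.55, SE 0.36) were the 3 of 15 lineage factors that were lower. Maf averaged 29.4 ± 24.6 against 261 ± 164 CPM (adjusted p = 9.8e-07). Lef1, a marker proposed for these cells, did not stand out: it averaged 194 ± 58.1 CPM in members and 254 ± 48.9 CPM in the neighbours (−0.34, SE 0.19, adjusted p = 0.60), and Ikzf2 with Lef1 was detected in 97 of 207 members.

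Of 10 checkpoint and costimulatory receptors tested, 0 were higher and 5 lower (median −0.99). Icos averaged 57.4 ± 28.6 CPM in members against 286 ± 148 CPM (−2.30, SE 0.21, adjusted p = 2.0e-07), and Ctla4 133 ± 114 against 314 ± 152 CPM (−1.50, SE 0.24, adjusted p = 0.00028). Pdcd1, the PD-1 gene, averaged 28.9 ± 37.6 against 75.5 ± 55.4 CPM (−1.65, SE 0.39, adjusted p = 0.014), and was called in 7 of 14 alternatives. Tnfrsf4, which encodes OX40, had 2 UMIs in all members (1.57 CPM, 0.191 to 5.69) and averaged 70.4 ± 53.1 CPM in the neighbours. The metallothionein gene Mt1 (6.56 ± 6.86 against 201 ± 358 CPM), Igfbp4 and Cbfa2t3 were among the 10 largest decreases. Among the naive and memory genes reported here, S1pr1 (−1.01) and Klf2 (−0.79) were lower.

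The neighbours held more fibroblast RNA and, in Empty vector, more macrophage RNA. The 8 macrophage markers summed to 4.72 CPM in members, with C1qb, C1qc and Ms4a7 at 0, and to 38.7 CPM in the neighbours. By hashtag this sum ran from 0 to 8.79 CPM in members and 11.1 to 101.2 CPM in the neighbours of Empty vector, and from 0 to 29.7 and 0 to 5.51 CPM in Bmal1 WT. The 6 fibroblast markers summed to 14.2 and 373 CPM. By hashtag the fibroblast sum ran from 0 to 29.7 CPM in members and from 8.26 to 517.6 CPM in the neighbours. The 8 B cell markers summed to 221 and 124 CPM, with Cd79a at 0 in both and Ighm, the 1 of them tested, higher (a call lost under 8 of 15 alternatives). The part of these transcripts and of the lower depth of the neighbours in the differences above was not tested. With cells of 2000 to 10000 UMIs alone, 66 genes were called, and Tcrg-C4, Tcrg-C1, Klra7, Ikzf2, Ahr, Xcl1, Cd244, Icos, Ctla4 and Maf were among them. Fcer1g, Klrd1 and Cd160, 3 of the 4 NK receptors and adaptors called, lost their calls there, as did Klra1, Nkg7, Ctsw, Tcrg-C2, Eomes, Cd5 and Pdcd1.

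**Figure D2:**
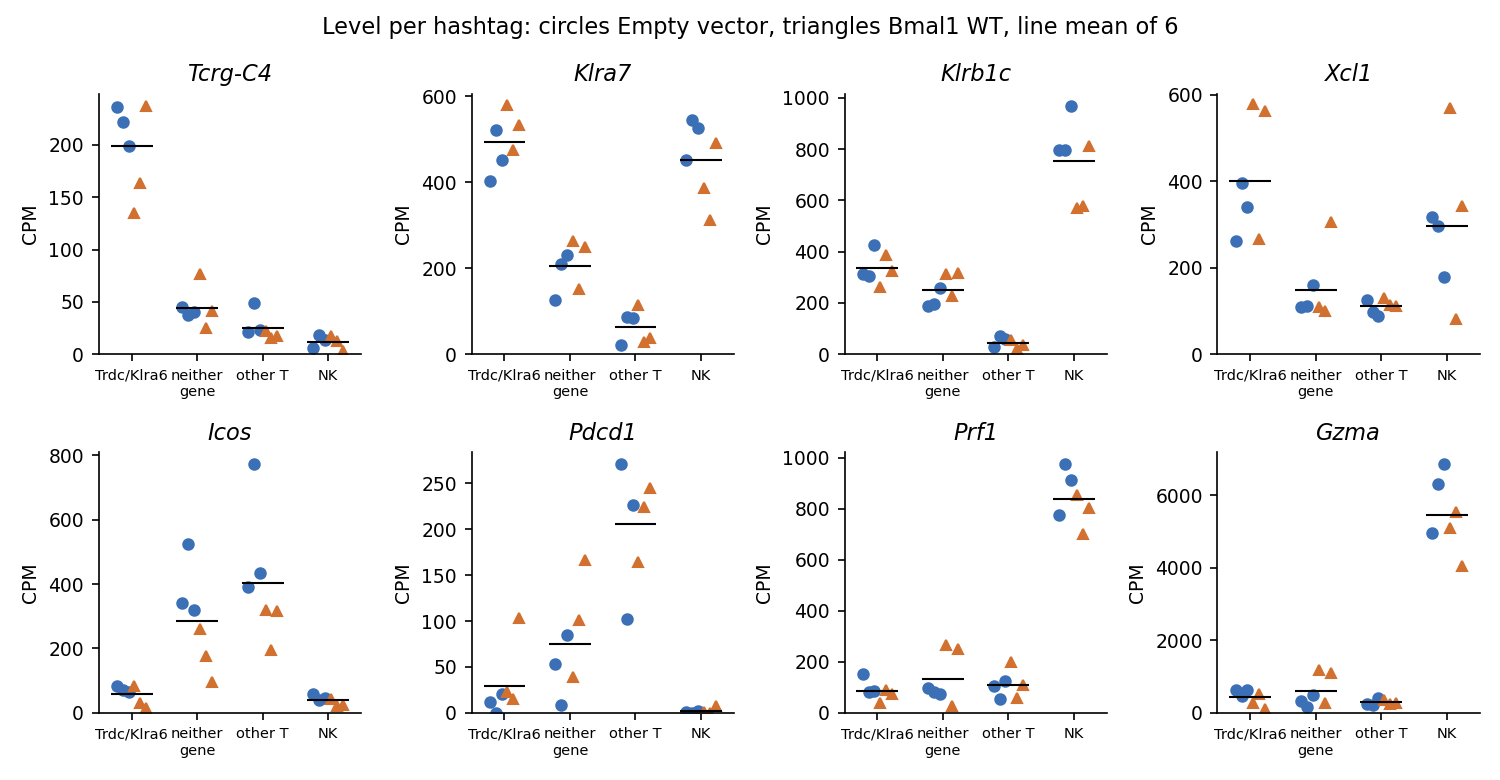
Level in CPM of 8 genes in each hashtag (circles Empty vector, triangles Bmal1 WT, line the mean of 6) for members, T cells that passed the exclusions with neither gene, all other T cells and NK cells. Tcrg-C4 is highest in the members (135 to 237 CPM), Klra7 is as high in members as in NK cells, Icos and Pdcd1 are low in members and NK cells, and Gzma and Prf1 are high in NK cells only among the 4 populations drawn.

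Against all 1401 other T cells, 512 of 10157 genes were higher in members (5.04%) and 1365 lower (13.4%). DESeq2 called 375 higher and 618 lower. The conditions of the rule enter this comparison, because the other T cells take in cells with Csf1r and cycling cells: their 8 macrophage markers summed to 415 CPM, by hashtag 177 to 1730 CPM, against 0 to 29.7 CPM in members. Penk, Cybb, Ccl6, Il1r2, Ccl1, C1qb and the cycling genes Hist1h1b, Birc5 and Ccna2 had 0 UMIs in members, at least 13.1-fold (C1qb) to 31.9-fold (Hist1h1b) lower, set against a floor of 3 UMIs over all members. The 1101 other T cells without Csf1r and not cycling were therefore used for the values against other T cells given next. Against them 259 of 8742 genes were higher (2.96%) and 652 lower (7.46%), with a median log2 fold change of −0.07. These cells still differ from the members by the Cd8b1, Cd4, Foxp3 and Il17a conditions. Members were also chosen for Trdc or Klra6, so higher gamma-delta receptor and Ly49 genes in them may follow from the choice.

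All 7 Ly49 genes tested were higher in members (median log2 fold change 2.48), with Klra7 (3.07, SE 0.16, edgeR adjusted p = 4.3e-26), Klra1 (2.97, SE 0.22) and Klra3 (3.09, SE 0.37) in front. Against all other T cells, 7 of 8 were higher and Klra2 lower, and with DESeq2 Klra4 stood at −0.0079 there. Of 18 other NK receptors and adaptors, 12 were higher and 1 (Klrg1) lower (median 1.29). Klrb1c, the NK1.1 gene, rose by 2.41 (SE 0.17), Fcer1g by 2.28 (SE 0.14), Klrc2 by 1.84 (SE 0.16) and Tyrobp, the adaptor of activating Ly49 receptors, by 1.24 (SE 0.18). Ncr1, which defines NK cells, was also higher (2.15, SE 0.31, adjusted p = 8.7e-08), at 79.2 ± 48.6 CPM in members. By kind it was at 33.6 CPM in Klra6 cells, 123 CPM in Trdc cells and 104 CPM in cells with both, against 405 CPM in NK cells, where it was selected. The part of NK cells, or of droplets that hold an NK cell and a T cell, in these differences was not tested.

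The 4 gamma-delta receptor genes were higher again (median 1.32). Of 10 alpha-beta receptor and CD3 genes 8 were lower (median −0.82), Trac by −1.27 (SE 0.14, adjusted p = 4.7e-11) and Cd8a by −1.97 (SE 0.18). Members held no Cd8b1 UMI and many were chosen for Trdc, so lower Cd8a and Trac may follow from the rule. Ikzf2 was higher (1.35, SE 0.11, adjusted p = 8.6e-17), as were Eomes (1.52, SE 0.19), Ahr (1.48, SE 0.18), the survival gene Bcl2 (0.78, SE 0.11) and the IL-2 and IL-15 receptor chain Il2rb (0.59, SE 0.09). Lef1 (0.04, SE 0.17, adjusted p = 0.94) and Tcf7 (0.28, SE 0.14, adjusted p = 0.28) did not pass here, whereas both passed against all other T cells (0.58 and 0.88). Of 17 lineage factors 2 were higher and 8 lower, among them Maf (−3.91, SE 0.24), Prdm1 (−3.02) and Rora (−2.16).

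Of 13 checkpoint receptors 11 were lower and 0 higher (median −1.75), with Pdcd1 at −3.52 (SE 0.27, adjusted p = 1.3e-17), Ctla4 at −2.81 (SE 0.18), Lag3 at −2.74 (SE 0.25) and Icos at −3.16 (SE 0.18). Havcr2, the TIM-3 gene, had 1 UMI in all members. Of 16 cytokines and chemokines, Xcl1 was higher (2.03, SE 0.18, adjusted p = 2.0e-14) and 10 were lower, among them Ccl3 (−4.02, SE 0.36), Ccl4 (−2.02, SE 0.23) and Ccl5 (−0.37, SE 0.11). Il4, Il10 and Il13 had 0 UMIs in members, which allows up to 2.36 CPM, and no median is given for that list. Cytotoxic effectors split, with Gzma (0.52, SE 0.17, adjusted p = 0.034), Gzmc and Ctsw higher and Gzmf and Gzmk lower of 11. Gzmc was at 2803 CPM in members of h9 and at 0 to 128 CPM in the other hashtags. Against all other T cells its log2 fold change of 2.32 became 0.54 without Bmal1 WT h9 and 0.78 with DESeq2, no longer called, and Gzma lost its call under 4 of 16 alternatives. Gzmb (0.01, SE 0.14) and Prf1 (−0.48, SE 0.23, adjusted p = 0.23) did not pass. The high-affinity IL-2 receptor chain Il2ra was lower (−3.36, SE 0.30), as were the tissue homing receptor Cxcr6 (−1.79) and Ccr2 among 6 of 15 cytokine and chemokine receptors.

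**Figure D3:**
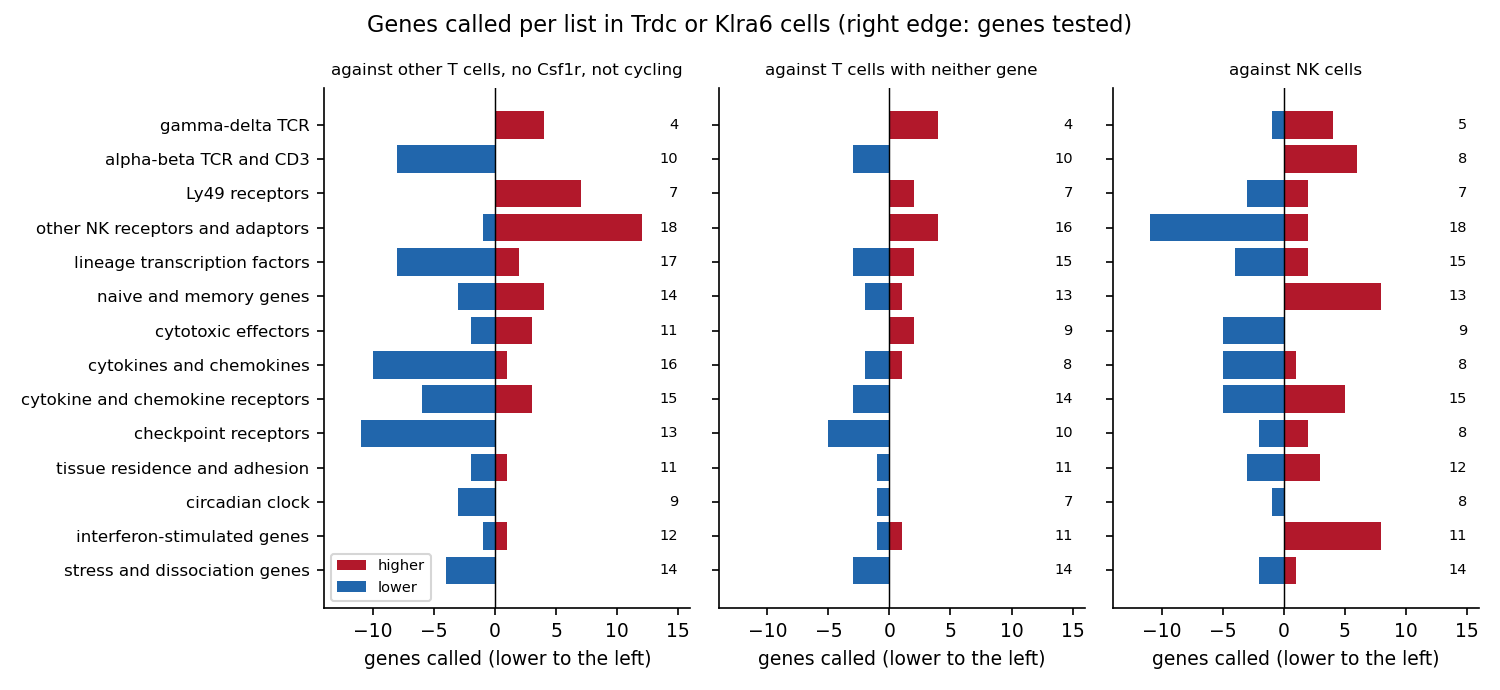
Number of genes higher (right) or lower (left) in Trdc/Klra6 cells at an edgeR adjusted p under 0.05, for 14 gene lists in 3 comparisons, with the number of genes tested at the right edge. Ly49 receptors are 7 of 7 higher against other T cells without Csf1r and not cycling (Klra4 turned to −0.0079 with DESeq2 against all other T cells) and 2 higher and 3 lower of 7 against NK cells, and checkpoint receptors are 11 of 13 lower against those T cells and 5 of 10 lower against T cells with neither gene.

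NK cells share the Ly49 and NK receptors with the members. Against 929 of them, members had the T cell receptor and CD3 genes, more Ikzf2 and more naive and memory genes, and less cytotoxic mediators. Of 8352 genes tested 314 were higher (3.76%) and 346 lower (4.14%). Tcrg-C2 and Trgv2 had 0 UMIs in NK cells and were at least 294-fold and 125-fold higher in members. Members were chosen for Cd3e or Cd3d UMIs and NK cells for having none, so higher T cell genes in members follow from the choice. Cd8a was at 97.1 ± 38.9 against 0.450 ± 0.734 CPM (6.93, SE 0.45). Cd3g, another CD3 chain, was at 447 ± 172 against 6.38 ± 5.04 CPM (5.72, SE 0.23, adjusted p = 9.9e-25). Trac was at 277 ± 125 against 15.8 ± 6.78 CPM (4.10, SE 0.22). Bcl11b, the factor that keeps T cell identity, averaged 163 ± 35.8 against 7.99 ± 5.46 CPM (4.39, SE 0.28). Of the gamma-delta receptor list, the delta variable gene Trdv4 was the 1 of 5 genes tested that was lower. It had few UMIs in members, and its call was lost under 5 of 12 alternatives.

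Ikzf2 stood at 1358, 1610 and 1377 CPM in members of h1, h7 and h8 and at 1435, 2540 and 1068 CPM in h3, h5 and h9. NK cells ran from 71.4 to 117 CPM (4.02, SE 0.14, adjusted p = 7.3e-27). Of 13 naive and memory genes 8 were higher and 0 lower (median 1.03, against −0.01 over all genes tested), including the IL-7 receptor Il7r (3.81, SE 0.20), S1pr1 (2.87, SE 0.27), Tcf7 (1.54, SE 0.16) and Lef1 (1.03, SE 0.17). Against other T cells without Csf1r and not cycling, this list was split, with 4 of 14 genes higher and 3 lower (median 0.07). Il7r and S1pr1 were among the lower there. Its median against T cells of neither gene was −0.20. Against NK cells, Cxcr6 was higher too (2.53, SE 0.27). Of 11 interferon-stimulated genes 8 were higher and 0 lower (median 0.96), among them Isg15 and Irf7, of which Irf7 lost its call under 10 of 14 alternatives.

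Klra7 was at 494 ± 63.0 CPM in members and 452 ± 88.5 CPM in NK cells (0.10, SE 0.13, adjusted p = 0.80), whereas Klra1 (1.09, SE 0.18, adjusted p = 1.3e-05) and Klra5 (1.62, a call lost under 5 of 14 alternatives) were higher in members and Klra8 (−3.90, SE 0.24), Klra4 (−3.40, SE 0.23) and Klra9 (−2.01, SE 0.20) lower. Klra4 and Klra8 encode the activating receptors Ly49D and Ly49H. Of 18 other NK receptors and adaptors 11 were lower and 2 higher (median −1.04), with Klrb1b (−4.29, SE 0.26), Tyrobp (−2.21, SE 0.13), Klrb1c (−1.19) and Fcer1g (−1.03) among the lower. Gzma stood at 635, 452 and 615 CPM in members of h1, h7 and h8 and at 263, 505 and 104 CPM in h3, h5 and h9, and at 4060 to 6859 CPM in NK cells (−3.67, SE 0.12, adjusted p = 3.2e-27). Prf1 (−3.25, SE 0.17) and Gzmb (−1.93, SE 0.15) were lower too, 5 of 9 cytotoxic effectors in all. Ccl3 (−4.40, SE 0.33) and Ccl4 (−3.19, SE 0.22) were lower, and Xcl1 (0.45, SE 0.15, adjusted p = 0.058) did not pass. Eomes (−1.09) and Bhlhe40 (−1.07) were below NK cells.

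Clock genes were sparse in the members. Arntl, the gene the study manipulated in the melanoma line, had 30 UMIs in all members (23.6 CPM, 15.9 to 33.7), at 45.7, 14.6 and 14.7 CPM in h1, h7 and h8 and at 15.02, 14.9 and 14.8 CPM in h3, h5 and h9. Apart from h1, these values stand for 1 to 5 UMIs each. Nr1d1 had 0 UMIs, which allows up to 2.36 CPM, against 46.3 CPM in T cells with Il17a or Cd163l1. Bhlhe40, which represses clock targets and acts in T cell cytokine control, was the 1 of 7 clock genes called against the neighbours (346 ± 146 against 538 ± 137 CPM, −0.69, SE 0.16, adjusted p = 0.011), and against other T cells without Csf1r and not cycling it was lower with Per1 and Hlf, 3 of 9 (median −0.68).

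The study's comparison, Bmal1 WT against Empty vector, was made over the 3 hashtags of each group. Members made up 10.7%, 18.8% and 15.2% of T cells in h1, h7 and h8 and 9.79%, 9.24% and 13.0% in h3, h5 and h9. The ranges overlapped, with h1 below h9. The means were 14.9% ± 4.07 and 10.7% ± 2.02 (SD, n = 3 each), a difference of −4.21 percentage points (2-sided exact permutation test, p = 0.20, adjusted over 4 shares p = 0.80). With 3 against 3 the smallest p is 0.10. Klra6 cells made up 6.24% ± 2.63 and 4.46% ± 2.74 (exact p = 0.60) and Trdc cells 6.83% ± 1.02 and 4.30% ± 3.03 (exact p = 0.40). Whole libraries, with cells of no or several hashtags, gave 14.02% (167 of 1191 T cells, 95% Clopper-Pearson interval 12.1 to 16.1) and 9.59% (40 of 417, 6.94 to 12.8), intervals that cover the counting of cells in 1 channel each and not replicates.

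The libraries differed in depth. With each cell thinned to 2000 UMIs, which left out 10 of 167 Empty vector members and 0 of 40 Bmal1 WT members, the means were 12.3% and 10.3% (exact p = 0.40). Over all hashtagged cells the members were 4.87% and 2.55% (exact p = 0.10, the smallest possible), and there the groups did not overlap. The groups did not overlap either in the share of T cells when Empty vector h1 or Bmal1 WT h9 was left out, where the smallest exact p is 0.20.

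**Figure D4:**
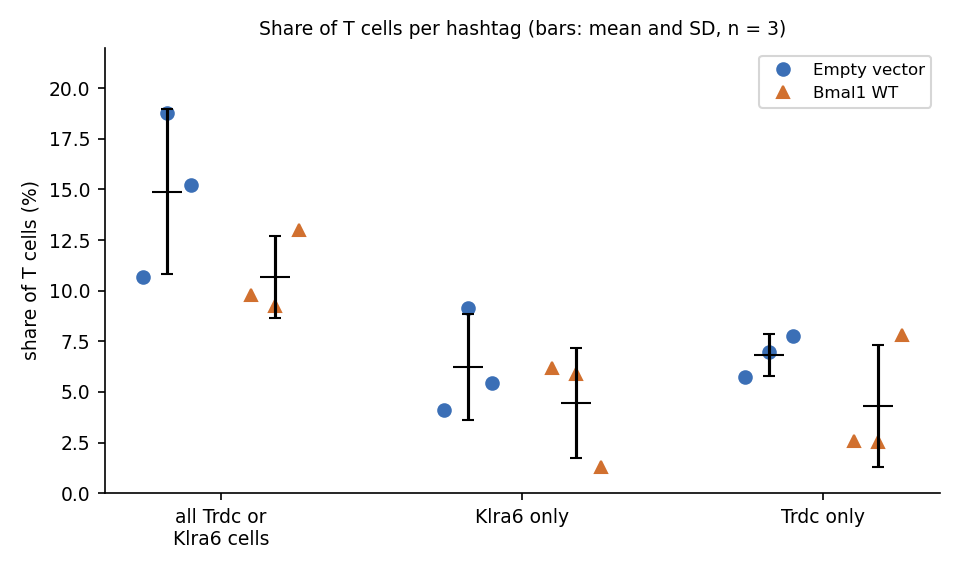
Share of T cells (%) that were members, Klra6 cells or Trdc cells in each hashtag, with the mean and SD of 3 hashtags (circles Empty vector, triangles Bmal1 WT). The groups overlap in all 3 shares, and h9 has the lowest share of Klra6 cells (1.30%) and the highest of Trdc cells (7.79%).

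No gene passed between the groups: edgeR called 0 of 3732 genes higher (0%) and 0 lower (0%), with 338 at an unadjusted p under 0.05 and a smallest adjusted p of 0.085. Other scalings changed this count. TMM factors gave 5 (4 higher) and DESeq2 33 (32 higher), and DESeq2 moved the median log2 fold change of all genes from −0.10 to 0.02, a shift of 0.12.

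Values of genes from the lists are given as a description, whatever their place in the order of p-values. S1pr1 stood at 228, 175 and 182 CPM in h1, h7 and h8 and at 45.1, 104 and 74.2 CPM in h3, h5 and h9 (log2 fold change −1.50, SE 0.35, adjusted p = 0.14). The groups did not overlap in S1pr1, as in 600 of all 3732 genes tested. Of 12 naive and memory genes tested 0 had a positive log2 fold change (1 with DESeq2, 0 with TMM factors). Their median was −0.52, against −0.10 for all tested genes. Unadjusted, 6 passed 0.05, and 0 were called. Klf3 (223 ± 57.1 and 104 ± 26.2 CPM) was among the 6. In the interaction with the other T cells, the difference between the group effects of members and of those cells, the list had a median of −0.09, with 5 of 14 genes positive and 0 called. The lists of gamma-delta receptors (4 genes), alpha-beta receptors (8), Ly49 receptors (7), cytotoxic effectors (8) and checkpoint receptors (4) gave 0 calls each, with medians of −0.04, 0.15, 0.22, 0.02 and 0.38. Ikzf2 averaged 1448 ± 141 CPM in the Empty vector hashtags and 1681 ± 766 CPM in those of Bmal1 WT (0.20, SE 0.19, adjusted p = 0.82).

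**Figure D5:**
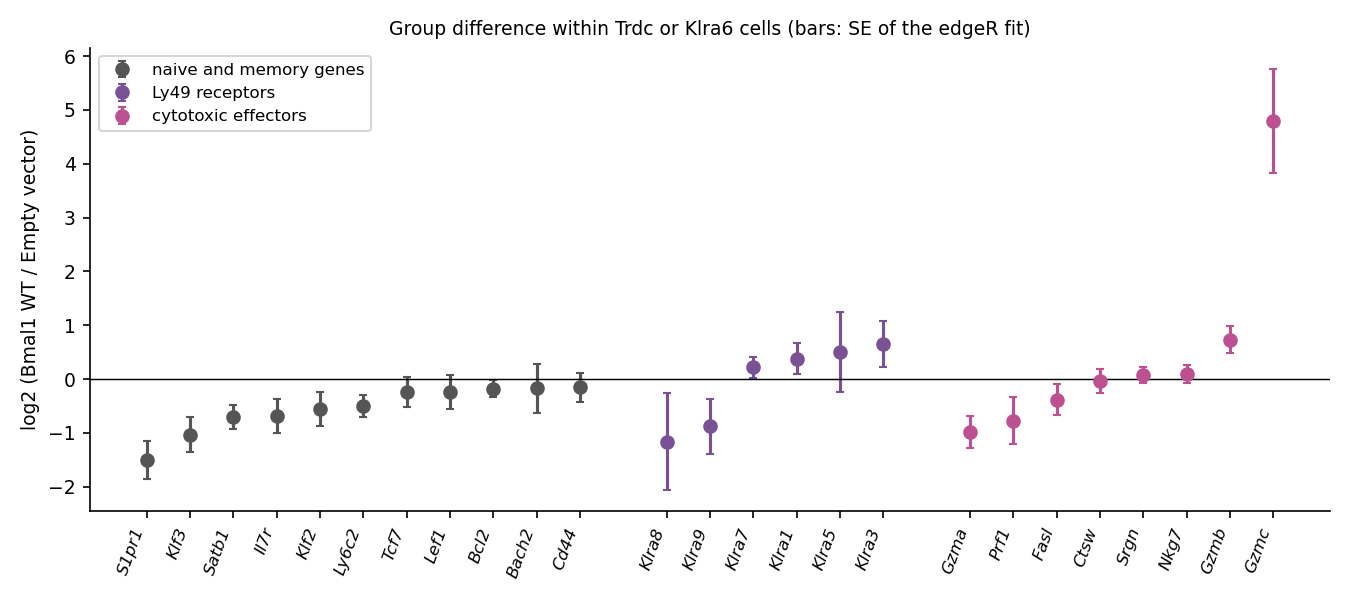
Log2 fold change of Bmal1 WT over Empty vector within members, with its SE from the edgeR fit over 3 hashtags a group, for tested genes of 3 lists. The naive and memory genes drawn lie below 0 (1 gene of the list above 0 with DESeq2), with S1pr1 the lowest (−1.50), and none of the genes drawn passed the threshold. Klra4, with 0 UMIs in Bmal1 WT members, is not drawn.

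Whether a group difference was particular to the members was tested as the interaction with all 1401 other T cells, those with Csf1r and cycling cells included, over 10157 genes. Of these 2 were higher (Gzmc and Fosl2, 0.0197%) and 2 lower (Klra4 and Mgp, 0.0197%). With TMM factors 1 was higher and 4 lower, and DESeq2 called 0. Klra4 stood at 126, 43.7 and 123 CPM in members of h1, h7 and h8 (33, 12 and 42 UMIs) and had 0 UMIs in h3, h5 and h9. Against a floor of 3 UMIs over the group, the summed Klra4 of Bmal1 WT members was at least 8.84-fold lower. This floor counts UMIs and not cells. A Klra4 UMI was detected in 15 of 207 members and in 10 of 95 Trdc cells, so the fold rests on few cells. Whether 0 UMIs in Bmal1 WT could come from counting so few cells was not tested. NK cells kept Klra4 in both groups (741 ± 43.9 and 628 ± 211 CPM). Within the members it was found mainly in Trdc cells of h1 (227 CPM) and h8 (236 CPM), and Bmal1 WT had 14 Trdc cells in all.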

How the data were processed

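Single cells were captured with the Chromium 3′ kit version 3.1 and hashtag antibodies. The authors deposited raw UMI counts per gene and barcode, made with Cell Ranger 6.1.2 per the file headers, with mm10 named in the submitters' processing notes and filtered to called cells. How strand was handled was not given in the sources used here. Bmal1 bHLH had 3 files with the same content as Bmal1 WT. These were counted once, and Bmal1 bHLH was not analysed here. Each matrix held 31053 genes, and 260 of 261 listed genes were found.

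Barcodes with at least 200 genes and at most 20% mitochondrial UMIs were kept. Hashtags were assigned by a 2-component Gaussian mixture on log(1 + count) (scikit-learn 1.9.0, Python 3.11.15), and cells above the minimum of exactly 1 hashtag entered a replicate. Doublets were not called, and cells with several hashtags entered no replicate. UMIs were summed per hashtag and population, and genes with at least 50 UMIs entered the quasi-likelihood test of edgeR (version 4.0.16, R 4.3.3). Library sizes were total UMIs, and the hashtag was a block between populations. The 12 genes of the rule were left out of the tests but kept in the totals (Ncr1 also, against NK cells). The SE was taken as the size of the log2 fold change over the square root of the F statistic. CPM are UMIs per 1000000 UMIs of the summed cells, and ± is the SD over hashtags. Benjamini-Hochberg adjusted p under 0.05 was called. The steps were checked on simulated counts.

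The members and gene lists were chosen with earlier results of these data known. Named genes were all listed genes and, per comparison of populations, the 10 largest changes in each direction among those called, with at least 50 CPM and the same direction in 6 of 6 hashtags. Between the groups, and for the interaction, they were the 10 of smallest adjusted p. Alternatives were TMM factors, DESeq2 1.42.0, minima of 1 and 100 UMIs per gene, another hashtag call, stricter cell filters, a sum of Trdc and Klra6 of at least 2, no block, and each hashtag left out. Cells of 2000 to 10000 UMIs alone were added after seeing the data. Promoters were RefSeq sequences of GRCm38.p6, and gene positions were from GENCODE M21. Some listed genes are not reported here.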

Additional observations from a re-analysis of the deposited data

Results flagged for a closer look

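For 4 genes the difference between Bmal1 WT and Empty vector was not the same in Trdc/Klra6 cells as in other T cells, by the interaction term of the edgeR fit (2-sided, adjusted over 10157 genes, 3 hashtags a group). Gzmc, a granzyme gene, had an interaction of 3.22 (log2, adjusted p = 4.5e-07), with members at 0, 83.8 and 14.6 CPM in h1, h7 and h8 and at 128, 0 and 2803 CPM in h3, h5 and h9. Of the Gzmc UMIs in hashtagged members, 189 came from h9, and the call was lost under 5 of 13 alternatives, among them leaving out h9 or Empty vector h8. Fosl2, an AP-1 gene, had an interaction of 1.04 (adjusted p = 0.0443), with means of 545 and 628 CPM in members and 384 and 218 CPM in other T cells of Empty vector and Bmal1 WT, and lost its call under 9 of 13 alternatives.

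Klra4 had a fitted interaction of −10.46 (adjusted p = 6.5e-07), which is no bound, since all 3 Bmal1 WT hashtags had 0 UMIs in members. It was detected in 15 of 207 members, so the value rests on few cells. Other T cells averaged 15.2 and 24.4 CPM, and the call was lost under 3 of 13 alternatives, among them DESeq2 and leaving out Bmal1 WT h3. Mgp, a matrix gene, had an interaction of −7.16 (adjusted p = 0.0024). It had 7 UMIs in hashtagged members, while other T cells of h5 stood at 229 CPM, and the call was lost under DESeq2 and without h5 or h1. The 4 interactions are values with no explanation tested.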

How the results depend on the processing

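The shares of members, Klra6 cells and Trdc cells kept their direction under every alternative run, with differences of −6.33 to −2.27, −2.86 to −0.21 and −4.28 to −1.64 percentage points when 1 hashtag was left out. Counts of called genes moved more. With other T cells, 1877 calls became 993 with DESeq2, 911 without Csf1r and cycling cells and 674 at 2000 to 10000 UMIs (1333 to 1814 with 1 hashtag left out). With NK cells, 660 became 421 with DESeq2 and 378 without the block (438 to 681, lowest without Empty vector h8). With T cells of neither gene, 174 became 48 with DESeq2, 290 and 105 at minima of 1 and 100 UMIs, 68 without the block and 66 at 2000 to 10000 UMIs (70 to 164). Between Klra6 and Trdc cells, 17 became 8 with DESeq2, 7 at 100 UMIs, 27 with the other hashtag call and 10 without the block (7 to 23, with 7 without Empty vector h8 and 8 without h7). Between the groups, 0 became 5 with TMM, 33 with DESeq2, 10 at 1 UMI, 1 with the other hashtag call and 1 at a sum of 2 (0 to 6, highest without Bmal1 WT h5). The 4 interactions became 0 with DESeq2, 2 at 100 UMIs, 7 at a sum of 2 and 7 with strict filters (3 to 8, with 7 without h3 and 8 without h5). The causes were not tested.

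Against other T cells the sign turned for Klra4 (−0.0079) and Gzmf (0.99) with DESeq2, and for Sox10 (0.038) with the other hashtag call. Without Csf1r and cycling cells it turned for Klf2 (−0.20), Ccl5 (−0.37), Hsp90aa1 (0.070) and Hsp90ab1 (0.089), and at 2000 to 10000 UMIs for Hcst (−0.092), Klf2 (−0.11), Ccl5 (−0.14) and Hsp90ab1 (0.043). In the other comparisons 0 named genes turned. Among 54 genes named against T cells of neither gene, 610 of 776 alternative values kept the call and 166 lost it. No paired analysis between the groups was made, because the labels give no pairing of their replicates. Single droplet channels, 40 Bmal1 WT members and 1 Klra6 cell in h9 limit what these data can show.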
